A study of Arabidopsis thaliana with 5 samples.

Results

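UDP-glycosyltransferases (UGTs) of Arabidopsis thaliana roots were described by family, in cells freed from the root and in the intact root. The members were the probe sets whose single gene symbol in the platform annotation had the form of a UGT family number, a subgroup letter and a gene number, whatever their signal. This gave 47 probe sets for 47 genes in 11 families, of 22746 probe sets on the array without the control probe sets. A further 3 probe sets named a UGT beside another gene and were left out. The RefSeq gene table (TAIR10.1) holds 58 genes with a symbol of this form, and all 47 members matched it by gene ID with an equal symbol.

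The samples were hybridised to Affymetrix arrays that hold 1 signal per probe set. One group was 3 samples of whole roots whose cells had been stripped of their walls (protoplasts) and run through a sorter, about 50000 cells giving the RNA of each. The other group was 2 samples of intact whole roots, with 1 µg of total RNA each. All were of ecotype Columbia with no mutation or transgene named in the labels, grew 5 days at pH 5.7 and then spent 24 h at pH 4.6, so low pH is shared by both groups. Whether the replicates are separate plantings is not in the labels, so each p-value reflects how far these 5 samples scatter, and that scatter may be technical. Removal of the cell walls, sorting, RNA input and group went together in all 5 samples and cannot be told apart. In bulk samples such as these, fewer cells of a type and less RNA per cell cannot be told apart either.

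UGTs move a sugar, most often glucose, from a UDP-sugar onto small molecules, which makes the product more soluble and often sends it to the vacuole. In plants the acceptors include lignin precursors, hydroxycinnamic acids, flavonols, hormones and foreign compounds. The family number groups enzymes by sequence, the letter marks a closer subgroup, and neighbouring genes of a subgroup often arose by tandem duplication. Members of a family can use different acceptors, so each is described by its own.

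Each array had been scaled by the authors to a trimmed mean signal of 250. Across tested probe sets the log2 signals correlated at r between 0.954 and 0.987 among the sorted samples, at 0.980 between the whole roots and at 0.671 to 0.696 between groups. The lowest values among the sorted samples, 0.954 and 0.956, were those of replicate 1 with the others. The signal ratio of the 3′ to the 5′ GAPDH control was 5.22 to 9.18 in the sorted samples and 0.788 to 0.969 in the whole roots. The ubiquitin ratio was 4.89 to 5.996 against 2.25 to 2.30, and the actin ratio was 107 to 169 against 24.5 to 30.8. Their part in the values of the UGT genes was not tested.

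The UGT genes changed in both directions. Of the 47 members, 27 were bright enough to be tested and 20 were too dim. Dim means a geometric mean signal over the 5 arrays below 43.3, the bound under which the dimmest 40% of probe sets lay. Of the 27, 5 rose and 6 fell in the sorted protoplasts and 16 did not pass (limma, Benjamini-Hochberg adjusted p under 0.05 over all 13647 tested probe sets). That is 40.7% of the tested members, where 60.6% of all tested probe sets were called. With no filter on dim probe sets it was 38.3% of the 47 members and 40.6% of all probe sets, and neither difference in share was tested. By direction the tested members were 18.5% higher, where 34.1% of all were higher, and 22.2% lower, where 26.5% of all were lower. The median log2 fold change (sorted protoplasts minus whole roots, here and below) was 0.02 over the tested members and 0.15 over all tested probe sets. Changes of at least 2-fold that passed made up 29.6% of the tested members and 35.4% of all tested probe sets. Median centring would raise the median of all tested probe sets by 0.24.

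**Figure D1:**
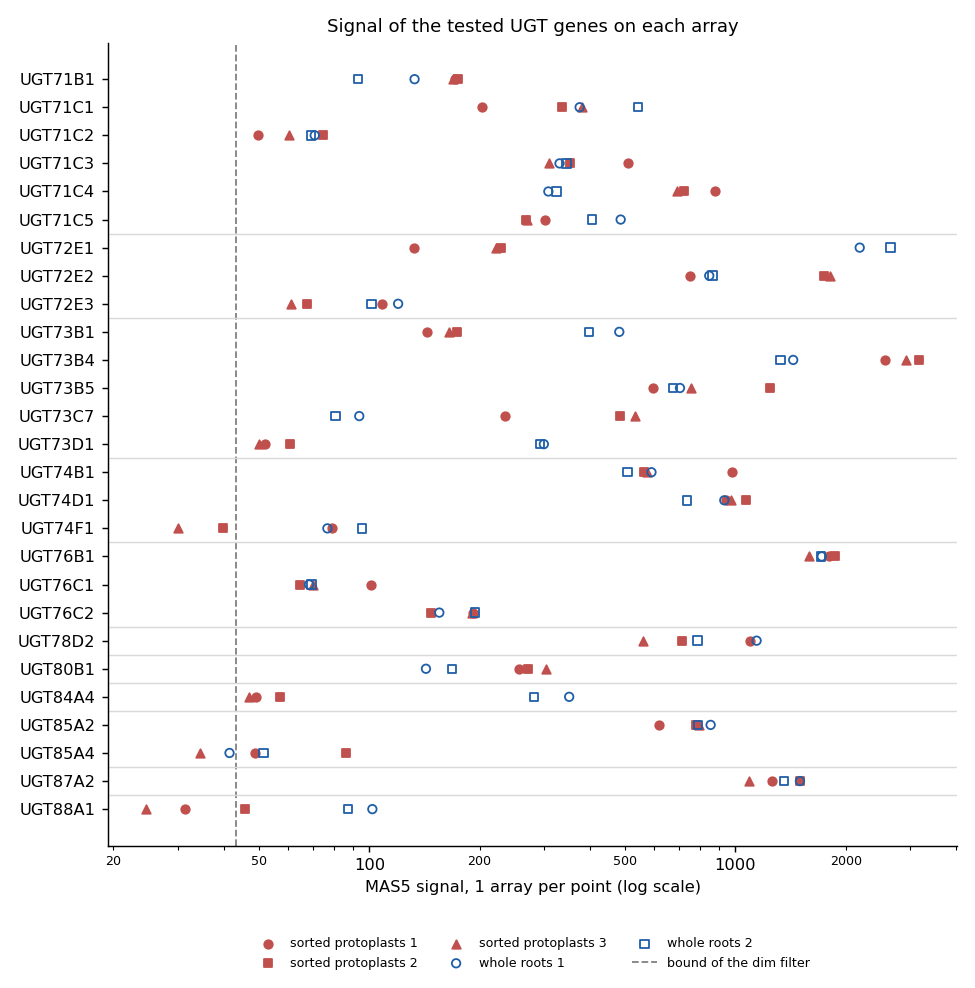
Signal of each of the 27 tested UGT genes (vertical axis, by family) on each of the 5 arrays (horizontal axis, MAS5 signal on a log scale); filled red symbols are the 3 sorted samples, open blue symbols the 2 whole-root samples, and the dashed line the bound of 43.3. The groups stand far apart for UGT72E1, UGT73D1, UGT84A4 and UGT73C7 and lie on top of each other for UGT76B1 and UGT76C2.

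By family, UGT73 had the largest number of calls, 4 of 5 tested, with 2 higher and 2 lower. Over all tested probe sets 60.6% were called, 34.1% as higher and 26.5% as lower. In UGT71 there were 2 higher and 1 lower among 6 tested. None of the 3 tested UGT74, the 3 tested UGT76 or the 2 tested UGT85 genes passed. UGT72 had 1 call among 3 tested, lower. Families with 1 tested gene were UGT80, which rose, UGT84 and UGT88, which fell, and UGT78 and UGT87, which did not pass. No family had more than 6 tested genes, so the counts describe these genes and carry no test.

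**Figure D2:**
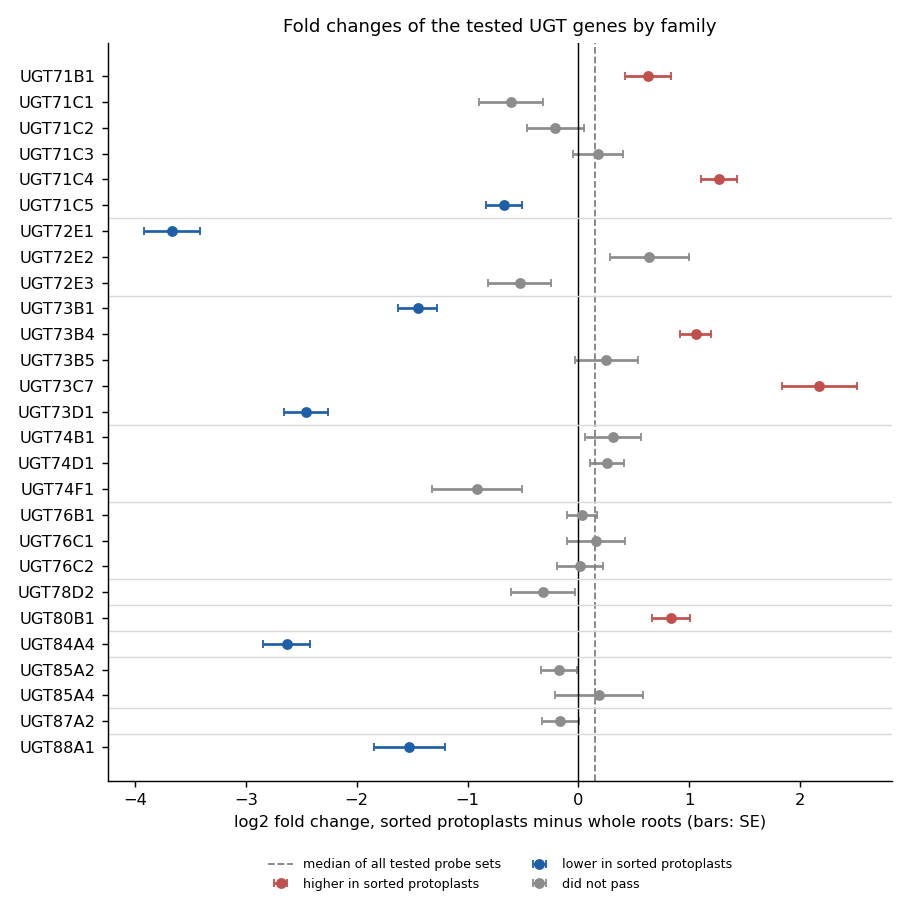
Log2 fold change of the 27 tested UGT genes, sorted protoplasts minus whole roots (horizontal axis, bars are the SE of the limma fit), ordered by family; red passed as higher, blue as lower, grey did not pass, and the dashed line is the median of all tested probe sets at 0.15. UGT72E1 lies farthest to the left at -3.67 and UGT73C7 farthest to the right at 2.17.

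The UGT72E subgroup glucosylates monolignols, the alcohols from which lignin is made, and their aldehydes. UGT72E1 (AT3G50740), which acts on coniferyl and sinapyl aldehyde, had signals of 133, 229 and 222 in the sorted samples and 2185 and 2650 in the whole roots. Every sorted sample was far below both whole roots. This was a 12.7-fold fall (log2 -3.67, SE 0.254, limma adjusted p = 2.70e-05). UGT72E2 (AT5G66690), which acts mainly on the alcohols, did not follow it.

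UGT72E2 gave 749, 1751 and 1818 in the sorted samples and 848 and 866 in the whole roots. Sorted replicate 1 lay below both whole roots and the other sorted samples at least as high as 1751, so the groups overlapped. Its log2 fold change was 0.64 with a 95% interval from -0.19 to 1.47 (limma adjusted p = 0.154). Without sorted replicate 1 it was 1.06 with an adjusted p of 2.43e-05 in limma. UGT72E3 (AT5G26310), also a monolignol enzyme, gave 108, 67.4 and 61.0 against 120 and 102 and did not pass (-0.53, adjusted p = 0.143 by limma). It passed without sorted replicate 1 (-0.78, limma adjusted p = 0.00894).

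Within each array the log2 ratio of UGT72E2 to UGT72E1 was 2.50, 2.93 and 3.03 in the sorted samples and -1.37 and -1.61 in the whole roots. The log2 ratio of UGT72E3 to UGT72E1 was -0.29, -1.77 and -1.86 in the sorted samples and -4.19 and -4.71 in the whole roots. Both ratios were higher in every sorted sample. They share UGT72E1, whose fall largely fixes this order, so they are a description without a test. The log2 ratio of UGT72E2 to UGT72E3 was 2.79, 4.70 and 4.90 in the sorted samples and 2.82 and 3.09 in the whole roots, so its groups overlapped. A ratio of this kind shows unequal change of a pair of probe sets. It gives no comparison of their transcript levels.

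UGT84A enzymes form glucose esters of hydroxycinnamic acids, the acids of the same phenylpropanoid pathway, and the 3 members UGT84A1, UGT84A3 and UGT84A4 stand side by side on chromosome 4. UGT84A4 (AT4G15500) was the sole member of the trio bright enough to be tested. Its signals were 49.0, 56.9 and 46.9 in the sorted samples and 351 and 282 in the whole roots. It was 6.20-fold lower (-2.63, SE 0.210, limma adjusted p = 4.78e-05), and the groups stood apart.

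Its neighbours were too dim on average for the test but showed the same order of groups. UGT84A3 (AT4G15490) gave 17.2, 12.4 and 8.74 against 157 and 130. UGT84A1 (AT4G15480) gave 33.5, 4.54 and 0.925 against 118 and 74.0. All sorted values of both genes lay below the bound and all whole-root values above it. Set against the bound of 43.3, the whole-root geometric mean was 3.295-fold higher for UGT84A3 and 2.16-fold higher for UGT84A1. Both passed when no filter was applied (limma adjusted p = 3.76e-04 and 0.0329), a setting in which 19.7% of all probe sets were called lower. The UGT84 family also holds UGT84B1, an auxin glucosyltransferase, and UGT84B2, whose signals reached at most 5.95 and 10.8 on any array.

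The UGT73 family held opposite changes, and the clearest were in a pair of neighbours on chromosome 3. UGT73C7 (AT3G53160), which acts on phenylpropanoid acids, had signals of 235, 485 and 530 in the sorted samples and 93.9 and 80.7 in the whole roots. UGT73D1 (AT3G53150), the gene next to it, had 51.8, 60.6 and 50.0 in the sorted samples and 300 and 293 in the whole roots. Neither gene's groups overlapped. UGT73C7 rose 4.51-fold (2.17, SE 0.339, limma adjusted p = 9.81e-04) and UGT73D1 fell 5.49-fold (-2.46, SE 0.196, limma adjusted p = 4.79e-05).

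The log2 ratio of UGT73C7 to UGT73D1 was 2.18, 3.00 and 3.41 in the sorted samples and -1.67 and -1.86 in the whole roots. The ratio was higher in every sorted sample than in either whole root. The pair was chosen as 1 higher and 1 lower gene, which fixes this order, so the ratio is a description without a test.

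UGT73B4 and UGT73B5 are known as stress-responsive enzymes that also act on foreign compounds. UGT73B4 (AT2G15490) gave 2569, 3169 and 2922 in the sorted samples and 1438 and 1329 in the whole roots. All sorted samples lay above both whole roots, and the gene rose 2.08-fold (1.06, SE 0.141, limma adjusted p = 4.80e-04). UGT73B5 (AT2G15480) gave 594, 1240 and 754 against 705 and 674, so its groups overlapped. Its log2 fold change was 0.25 with a 95% interval from -0.40 to 0.91 (limma adjusted p = 0.462). The RefSeq span of UGT73B5 overlaps that of UGT73B4, so a signal of one may hold transcript of the other.

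UGT73B1 (AT4G34138), of the same subgroup, moved the other way. Its signals were 143, 174 and 165 in the sorted samples and 482 and 398 in the whole roots, with no overlap. It fell 2.73-fold (-1.45, SE 0.177, limma adjusted p = 3.16e-04). The log2 ratio of UGT73B4 to UGT73B1 had a mean of 4.17 ± 0.0216 (SD, n = 3) in the sorted samples and 1.66 ± 0.115 (SD, n = 2) in the whole roots. This pair too was chosen as 1 higher and 1 lower gene, so the ratio is a description without a test. UGT73C1 and UGT73C2, neighbours on chromosome 2, reached at most 12.6 and 16.8 on any array.

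The UGT71C subgroup holds 5 members in neighbouring sets on chromosomes 1 and 2, all bright enough to be tested. On chromosome 1, UGT71C4 (AT1G07250) gave 881, 725 and 693 in the sorted samples and 308 and 325 in the whole roots. It rose 2.41-fold (1.27, SE 0.160, limma adjusted p = 3.68e-04), with every sorted sample above both whole roots. UGT71C5 (AT1G07240), next to it, conjugates abscisic acid, the hormone of water stress.

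UGT71C5 gave 301, 267 and 269 against 486 and 406 and fell 1.59-fold (-0.67, SE 0.162, limma adjusted p = 0.00813). Without whole-root replicate 1 its call was lost (-0.54, limma adjusted p = 0.0802). On the other side, UGT71C3 (AT1G07260), which acts on methyl salicylate, gave 510, 353 and 310 against 331 and 345 and did not pass (0.18, 95% interval -0.34 to 0.69). The 3 adjacent genes thus comprised 1 higher, 1 lower and 1 that did not pass, and the RefSeq spans of UGT71C4 and UGT71C3 overlap. On chromosome 2, UGT71C1 (-0.61, 95% interval -1.28 to 0.07) and UGT71C2 (-0.21, 95% interval -0.80 to 0.39) did not pass. UGT71C1 passed with the replicate number as a block (-0.79, limma adjusted p = 0.0182).

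UGT71B1 (AT3G21750) gave 171, 175 and 170 in the sorted samples and 133 and 93.2 in the whole roots. The sorted values lay within a narrow range, and the whole roots differed more from each other. It rose 1.54-fold (0.63, SE 0.206, limma adjusted p = 0.0301). It lost its call under 4 of the other settings, more than any other called member. Its limma adjusted p was 0.0783 without sorted replicate 2, 0.0741 without sorted replicate 3 and 0.207 without whole-root replicate 2, where the log2 fold change was 0.37, and 0.0819 with the replicate block. UGT71B6, an abscisic acid enzyme near it, reached at most 5.00 on any array.

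**Figure D3:**
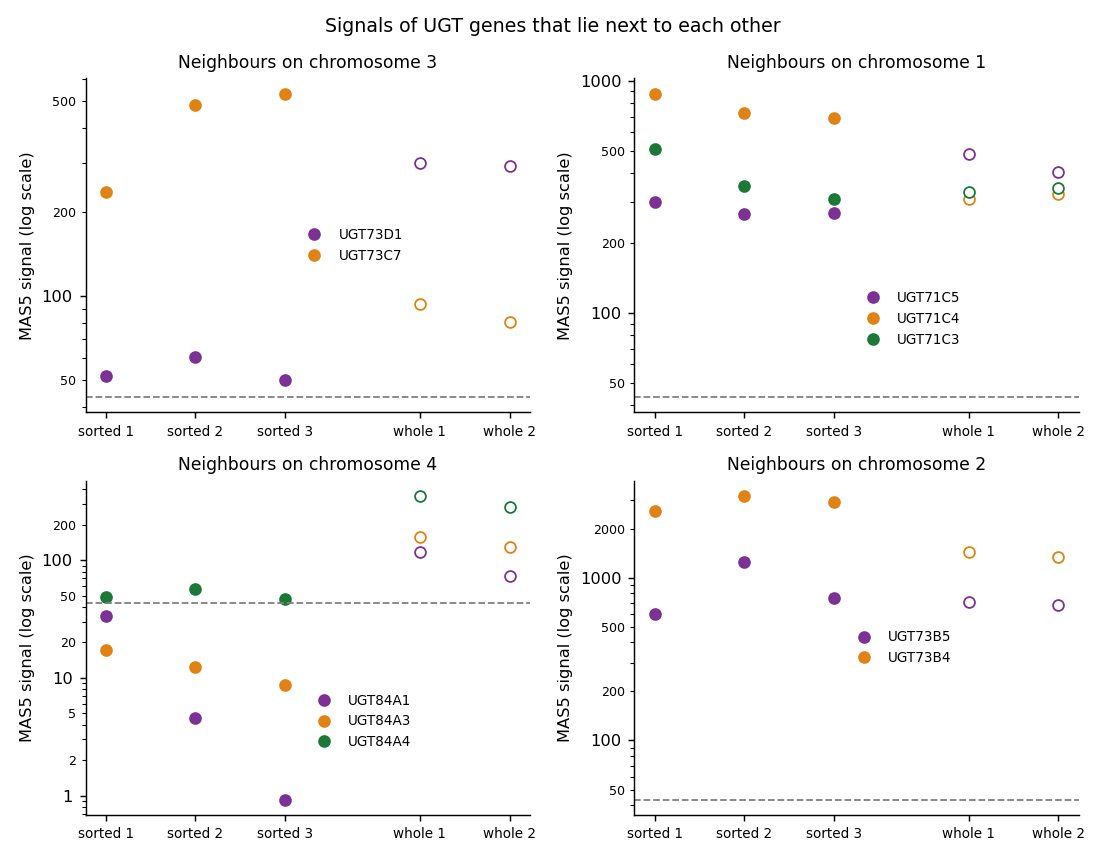
Signals (vertical axis, log scale) of 4 sets of adjacent UGT genes on the 3 sorted arrays (filled points) and the 2 whole-root arrays (open points), 1 colour per gene; the dashed line is the bound of 43.3. From the sorted samples to the whole roots UGT73C7 and UGT71C4 are lower while their neighbours UGT73D1 and UGT71C5 are higher, and all 3 UGT84A genes are higher in the whole roots. Levels of different genes are not comparable.

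In all, 31 members lay in 13 sets of neighbours with at most 2 protein-coding genes between them. Of these sets, 5 had 2 or more tested genes, and 2 of the 5 held a call in each direction, the chromosome 3 pair of UGT73 and the chromosome 1 trio of UGT71C. Over all tested probe sets 34.1% were called higher and 26.5% lower. Neighbouring genes outside the UGTs were not examined, so the count describes these sets only. The cytokinin enzymes UGT76C1 and UGT76C2 on chromosome 5 formed a pair in which neither gene passed.

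Among the enzymes listed here as conjugating hormones 1 gene was called. Of the 11 members known for salicylate or related acids, abscisic acid, auxin, cytokinin or hydroxyjasmonate, 7 were tested, 1 fell (UGT71C5, above) and 6 missed the threshold, where 60.6% of all tested probe sets were called and 26.5% were lower. The median over the 7 was 0.03, and 0.15 over all tested probe sets. This grouping was made from known acceptors after the values had been seen and describes these genes only. It counts 1 member for hydroxyjasmonate, though the UGT76E subgroup (4 members, 0 tested) acts on it. Other members may act on hormones too, so the list may not be complete. UGT76B1 (AT3G11340), which glucosylates isoleucic acid and salicylic acid in defence, gave 1805, 1871 and 1592 in the sorted samples and 1721 and 1710 in the whole roots. Its log2 fold change was 0.03 with a 95% interval from -0.28 to 0.34, so a change of 2-fold lies outside the interval.

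UGT74F1 (AT2G43840), a salicylate glucosyltransferase, gave 79.0, 39.8 and 30.1 against 76.8 and 95.5. Sorted replicate 1 lay between the whole roots and the other sorted samples lay below both. The fit gave -0.91 with a limma adjusted p of 0.0844. Without sorted replicate 1 it was -1.31 and passed (limma adjusted p = 0.00203). UGT74D1 (AT2G31750), which acts on auxin and its oxidised form, gave 940, 1068 and 975 against 932 and 738, without overlap.

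UGT74D1 did not pass (0.26, limma adjusted p = 0.182), though it did after median centring (0.50, limma adjusted p = 0.0264). The cytokinin N-glucosyltransferases UGT76C1 (101, 64.7 and 70.0 against 68.5 and 69.5) and UGT76C2 (192, 147 and 191 against 155 and 194) overlapped between groups. Their log2 fold changes were 0.16 (95% interval -0.44 to 0.76) and 0.02 (95% interval -0.46 to 0.49). UGT76D1 (AT2G26480), which acts on dihydroxybenzoic acids made from salicylate, was too dim on average for the test. It gave 18.3, 18.7 and 21.1 against 73.5 and 61.0, and against the bound its whole-root geometric mean was 1.54-fold higher.

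Single tested genes of other families included 2 calls. UGT80B1 (AT1G43620), a sterol glucosyltransferase, gave 257, 271 and 304 in the sorted samples and 143 and 168 in the whole roots. It rose 1.79-fold (0.84, SE 0.174, limma adjusted p = 0.00400). Its gene span of 4876 bp is long for this set, where the median over tested members is 1855 bp. Across 7334 tested probe sets with a gene length, fold change went with length at a Spearman's rho of 0.320 (genes are not independent replicates). With that trend removed UGT80B1 was at 0.44 and did not pass (limma adjusted p = 0.0629).

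UGT88A1 (AT3G16520) gave 31.5, 45.8 and 24.6 against 102 and 87.6 and fell (-1.52, SE 0.319, limma adjusted p = 0.00414). Its sorted geometric mean of 32.9 lies below the bound, so it entered the test through its whole-root signal, and set against the bound it was 2.18-fold lower. Without whole-root replicate 1 the call was lost (-1.41, limma adjusted p = 0.0512). Among the genes that did not pass was UGT74B1 (AT1G24100), which adds the glucose of glucosinolates, the defence compounds of the mustard family.

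UGT74B1 gave 978, 562 and 573 in the sorted samples and 590 and 508 in the whole roots, with sorted replicate 1 above the rest (0.31, 95% interval -0.27 to 0.90). UGT78D2 (AT5G17050), which adds glucose to flavonols and anthocyanidins, gave 1097, 717 and 558 against 1142 and 788. It did not pass (-0.32, limma adjusted p = 0.365), but passed without sorted replicate 1 (-0.59, limma adjusted p = 0.0194). UGT87A2 (AT2G30140), known for a role in flowering time, gave 1259, 1505 and 1089 against 1500 and 1355 (-0.16, 95% interval -0.55 to 0.23). UGT85A2 (-0.18, 95% interval -0.55 to 0.20) and UGT85A4 (0.19, 95% interval -0.73 to 1.10) did not pass, and UGT85A2 passed as lower with the length trend removed (-0.55, limma adjusted p = 0.0210).

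Of the 20 dim members, 12 stayed below the bound of 43.3 in every sample, and no fold is given for those. The remaining 8 had at least 1 sample above it, and in 7 the groups did not overlap, 2 higher and 5 lower in the sorted samples. Over all probe sets 61.8% showed no overlap, 30.9% higher and 30.9% lower. The 8 were picked by a geometric mean below the bound and a sample above it, which favours groups that stand apart. Sorted arrays outnumber whole-root arrays in that mean, which favours genes lower in the sorted samples. The counts therefore describe these genes only. The 5 lower were UGT84A1, UGT84A3, UGT76D1, UGT72B3 and UGT78D1. UGT72B3 (AT1G01420) gave 1.62, 6.55 and 1.60 in the sorted samples and 38.4 and 85.1 in the whole roots, 1.32-fold higher in the whole roots against the bound. UGT78D1 (AT1G30530), a flavonol rhamnosyltransferase, gave 5.08, 17.3 and 18.4 against 25.8 and 55.0.

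The 2 higher were UGT71B5 (57.1, 58.8 and 54.0 against 21.1 and 25.3) and UGT76E2 (37.4, 54.0 and 65.9 against 15.5 and 25.8). Against the bound their sorted geometric means were 1.31-fold and 1.18-fold higher. The UGT76E subgroup acts on hydroxylated jasmonate, and UGT76E1, its best known enzyme for this, reached at most 21.9. With no filter, 18 of the 47 members passed, 8 higher and 10 lower. This is 38.3%, where 40.6% of all 22746 probe sets passed, 20.9% as higher and 19.7% as lower. The 7 added calls were UGT71B5, UGT76E2 and UGT85A5 as higher and UGT72B3, UGT76D1, UGT84A1 and UGT84A3 as lower, while UGT78D1 did not pass (limma adjusted p = 0.0928). UGT85A5 stayed below the bound on every array (22.1, 30.6 and 31.1 in the sorted samples against 12.1 and 6.54).

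**Figure D4:**
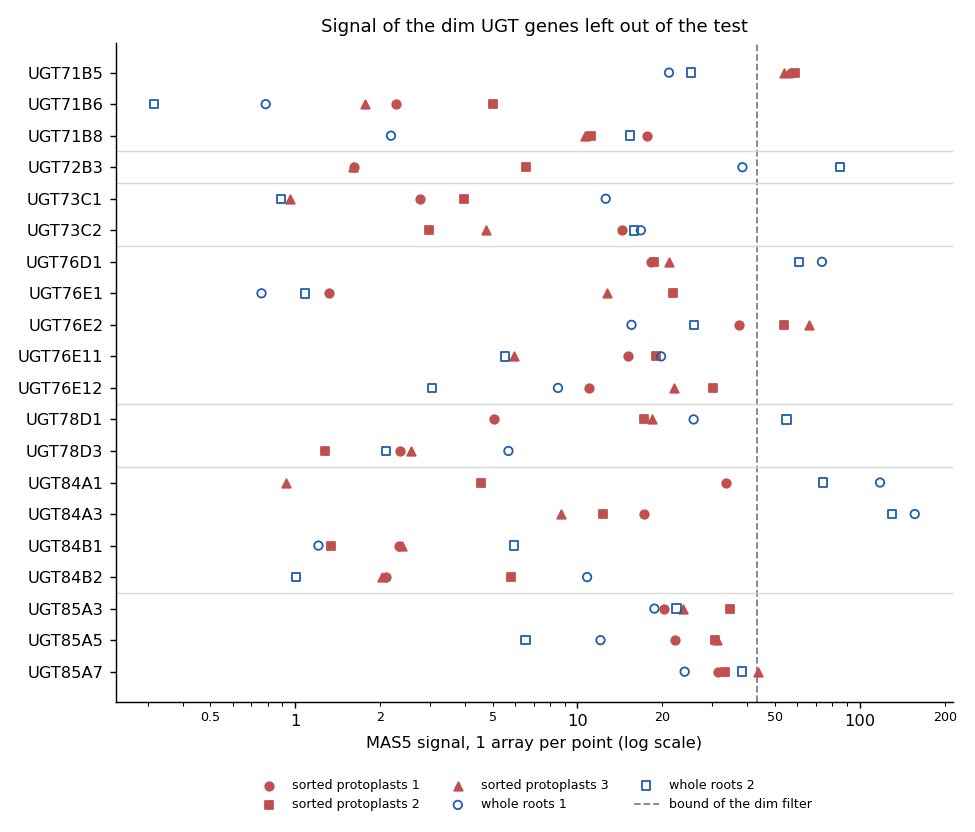
Signal of the 20 dim UGT genes (vertical axis, by family) on the 5 arrays (horizontal axis, MAS5 signal on a log scale), with filled red symbols for the sorted samples, open blue symbols for the whole roots and the bound of 43.3 as a dashed line. The whole-root values of UGT84A1, UGT84A3 and UGT76D1 lie to the right of the bound and their sorted values to the left, and most other genes stay to the left on all arrays.

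The groups did not overlap for 24 of the 47 members, 12 higher and 12 lower, which is 51.1%, where 61.8% of all probe sets showed no overlap, 30.9% in each direction. Among the 27 tested members the share was 44.4%, where 75.8% of tested probe sets showed none, 42.7% higher and 33.1% lower. Sorted replicate 1 differed from the mean of replicates 2 and 3 by more than 0.5 on the log2 scale in 11 of the 27 tested members, 6 higher and 5 lower. Set in the same way against the mean of the other sorted samples, replicate 2 differed by that much in 4 members and replicate 3 in 7. Replicates 2 and 3 differed from each other by that much in 3 members, and so did the whole roots. For replicate 1 the 6 higher were UGT71C3, UGT72E3, UGT74B1, UGT74F1, UGT76C1 and UGT78D2, and the 5 lower were UGT71C1, UGT72E1, UGT72E2, UGT73B5 and UGT73C7. Without replicate 1 the tested members had 6 calls higher and 9 lower.

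Few genes that supply the sugar donor or make and use the acceptors could be named. The annotation named a single gene for 13513 of 22746 probe sets, and why so few listed symbols matched was not tested. Of 30 symbols for UDP-sugar synthesis 1 was named, USP (AT5G52560), the pyrophosphorylase that makes UDP-sugars from sugar phosphates. It gave 888, 520 and 556 in the sorted samples and 286 and 276 in the whole roots and rose 2.26-fold (1.18, limma adjusted p = 0.00355). Of 3 tested monolignol and hydroxycinnamate genes 0 rose, 1 fell and 2 did not pass. HCT passed as higher after median centring (0.67, limma adjusted p = 0.0259) and CCR2 as lower without sorted replicate 1 (-0.40, limma adjusted p = 0.0442). The one that fell was ALDH2C4 (AT3G24503), which oxidises coniferyl and sinapyl aldehyde, the acceptors of UGT72E1, to the acids. Its signals were 897, 953 and 1134 against 2608 and 2684, a 2.67-fold fall (-1.42, limma adjusted p = 1.50e-04).

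AT3G13610, the feruloyl-CoA hydroxylase F6'H1 that leads to the coumarin scopoletin, a compound stored as its glucoside, gave 309, 322 and 357 against 5019 and 5853. It fell 16.5-fold (-4.04, SE 0.145, limma adjusted p = 3.88e-06) and was the one tested gene of 2 named for coumarins. Of 3 named glucosidases that release the acceptors again, 2 were tested, of which 1 fell and 1 did not pass. Over all tested probe sets 26.5% were called lower. The dim one, BGLU45, gave 16.3, 9.70 and 11.7 against 71.8 and 54.8. Against the bound its whole-root geometric mean was 1.45-fold higher. The one that did not pass, BGLU46, passed as lower without sorted replicate 1 (-0.83, limma adjusted p = 0.00257) and with the length trend taken out (-0.93, limma adjusted p = 0.0460). PYK10 (AT3G09260), a root glucosidase, gave 6015, 6548 and 6504 against 7819 and 11298 (-0.57, limma adjusted p = 0.0209). The PYK10 call was lost without whole-root replicate 2 (-0.30, limma adjusted p = 0.133), without sorted replicate 3 (0.0543), after median centring (-0.33, 0.164) and with no filter (0.0591). GSTU25, a glutathione transferase induced with UGTs by foreign compounds, was the tested gene of that list and did not pass (0.15, limma adjusted p = 0.307), but passed after median centring (0.39, limma adjusted p = 0.0373) and once the trend with gene length was taken out (0.94, limma adjusted p = 4.84e-04).

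The auxin-conjugating enzymes GH3.3 (-4.70) and WES1 (-1.76), which add amino acids in place of sugar, both fell (2 of 2 tested). Over all tested probe sets 26.5% were called lower. The auxin glucosyltransferase UGT74D1 did not pass, and its change was not compared with theirs. The named flavonoid gene was too dim for the test, and no gene of glucosinolate synthesis was named. Few of the listed root markers were named by the annotation. The root hair expansin EXPA7 gave 23.3, 40.8 and 66.1 against 67.7 and 69.3, the endodermal receptor GSO1 1173, 506 and 507 against 389 and 454, and the xylem gene GUT2 255, 124 and 134 against 135 and 127. None of these 3 passed. The sorted geometric mean of EXPA7, 39.7, was below the bound, against which the gene was 1.58-fold lower. EXPA7 passed without sorted replicate 3 (-1.15, limma adjusted p = 0.0330) and with the replicate block (limma adjusted p = 0.0295). GSO1 did after median centring (0.91, limma adjusted p = 0.0389) and with the replicate block (0.87, limma adjusted p = 0.0455).

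The vascular regulator LHW (1.34) and the receptor kinase CR4 of the root tip (2.13) rose, CR4 with both whole roots below the bound, against which it was 1.83-fold higher. Both leaf markers fell, Rubisco activase RCA (38.3, 51.1 and 47.1 against 393 and 517) and LHCB4.1 (56.1, 60.8 and 45.5 against 409 and 454). Summed over these 2 genes of 4 listed, the signal was 92.6 to 112 in the sorted samples and 802 to 971 in the whole roots, and neither gene was at 0 on any array. The leaf marker list thus had 2 of 2 tested genes lower in the sorted samples, where 26.5% of all tested probe sets were called lower. The part of the leaf markers in the UGT values was not tested.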

How the data were processed

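Intensity values, 1 for each probe set on each array, are used as the authors deposited them. The submitters' processing notes name MAS5. The version and detection calls were not given in the sources used here. The 64 control probe sets and the 9099 probe sets (40%) with the lowest mean log2 intensity were left out, and 13647 were tested on log2 of the deposited intensity with limma 3.58.1 in R 4.3.3 (lmFit, eBayes with a mean-variance trend, group as sole factor, Benjamini-Hochberg threshold 0.05). Arrays hold no counts, so their number limits the precision. The fit was tested on simulated data. UGT genes were named through the platform annotation, and gene order and length came from RefSeq TAIR10.1. The genome build behind the probe sets is not given in the sources used here, so no coordinates are printed.

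Every UGT member past the threshold was named with its 5 values, other tested members with their fold change, and dim members where groups did not overlap and a sample reached the bound. From each pathway or marker list, the 2 called genes with the largest change were named, or the gene with the smallest adjusted p. UGT71B6, UGT76E1, UGT84B1, UGT84B2, UGT73C1, UGT73C2, UGT85A5 and the ratios of UGT72E genes were chosen after their values were seen. HCT, CCR2 and BGLU46 are named outside that rule where a setting changed their call, and BGLU45 was added after its values were seen. An exact permutation test of ratios between a higher and a lower gene of a family had been planned and is not reported, because the choice of genes fixes its result. Members and lists were chosen with earlier results of these data known. The alternatives tried were leaving out each sample, a replicate block, a 60% filter or none, quantile normalization, median centring, eBayes without the trend, adding 32 before log2, and taking out a loess trend with gene length.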

Additional observations from a re-analysis of the deposited data

How the results depend on the processing

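Of 343 values of the 27 tested UGT members under other settings, 329 kept their call, 7 lost it and 7 gained it, and no called gene changed sign. The calls of UGT71C4, UGT72E1, UGT73B1, UGT73B4, UGT73C7, UGT73D1 and UGT84A4 held under every setting that tested them. With no filter 8 members were higher and 10 lower, and at the 60% filter 3 were lower because 19 members were tested. The median over tested members, 0.02, was 0.25 with median centring, 0.18 at the 60% filter and -0.0796 with the length trend removed, so its sign depends on the setting. Leaving out 1 sample gave medians from -0.17 to 0.0257, with 4 to 6 members higher and 4 to 9 lower. Over all probe sets, 2223 were lower at the 60% filter, and with the length trend removed, where 7334 were tested, 1972 were higher and 1948 lower. Leaving out 1 sample gave 3344 to 5280 higher and 2660 to 4173 lower. With the replicate block, 4 members were higher and 7 lower. The replicate numbers share no batch in the labels, and deviations of same-numbered samples correlated at 0.00569 and 0.00134, so they were not taken as pairs.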
